A study of Mus musculus with 12 samples.

Results

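Disease-associated microglia genes are genes that mouse microglia switch on around amyloid plaques and in other damaged nervous tissue. The 5 followed here, chosen by symbol, were Cst7, Clec7a, Igf1, Csf1 and Ank. All 5 had a row in the microglia table, which held 2186 genes, and 0 of the 5 had a row in the table of regulatory T (Treg) cells, which held 1284 genes, so their levels in Treg cells are not analysed here. The series held 12 mouse libraries of messenger RNA in 4 groups of 3. Primary microglia co-cultured with Treg cells (n = 3) were compared with unstimulated primary microglia, the control (n = 3). The other libraries were Treg cells on day 14 after spinal cord injury, 3 libraries from the cord and 3 from the spleen. The labels give no strain, age or sex, and do not say where the Treg cells of the co-culture came from, how long it lasted, whether the cells touched, or whether the co-cultured microglia had any other stimulus. Nothing in them shows that libraries of a group are separate cultures, so a p-value here reflects library-to-library spread only, part or all of which may be technical.

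Microglia are the resident macrophages of the brain and spinal cord. In the healthy tissue they express a homeostatic programme of receptors such as Cx3cr1, and in mouse models of neurodegeneration some of them lose that programme and gain a disease-associated one, in a later step that depends on the lipid receptor Trem2. The 5 genes here are all higher in that state and have different jobs. Cst7 encodes cystatin F, an inhibitor of lysosomal cysteine proteases, and Clec7a encodes dectin-1, a surface lectin that recognises fungal beta-glucan and signals through the kinase Syk. Igf1 encodes insulin-like growth factor 1, and Csf1 encodes macrophage colony-stimulating factor, the ligand of the receptor Csf1r on which microglia depend for survival. Ank encodes a membrane protein that exports ATP and citrate and so feeds extracellular pyrophosphate.

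The promoters of the 5 genes are shown because the genes split into 2 that rose and 3 that fell. Each sequence is from RefSeq (GRCm38.p6), runs 5′ to 3′ on the strand of the gene, and covers 250 bases before and 50 bases after a transcription start. Capitals mark matches to any of 7 motifs searched on both strands: GGAAGT, a core of ETS factors such as PU.1, TGANTCA for AP-1, TTC and GAA with 3 or 4 bases between them for STAT factors (2 motifs), GAAA repeated after 2 free bases for interferon response elements, GGGA and TTTCC around 1 free base for NF-kB, and the TATA box TATAAA. No match overlapped another.
Cst7 (chr2:150570165-150570464, plus strand): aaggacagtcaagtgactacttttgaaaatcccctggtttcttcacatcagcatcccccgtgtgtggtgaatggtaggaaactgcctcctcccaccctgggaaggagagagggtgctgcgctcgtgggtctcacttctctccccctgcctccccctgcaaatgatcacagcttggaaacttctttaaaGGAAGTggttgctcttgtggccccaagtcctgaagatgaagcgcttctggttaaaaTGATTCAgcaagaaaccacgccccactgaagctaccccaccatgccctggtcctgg
Clec7a (chr6:129472736-129473035, minus strand): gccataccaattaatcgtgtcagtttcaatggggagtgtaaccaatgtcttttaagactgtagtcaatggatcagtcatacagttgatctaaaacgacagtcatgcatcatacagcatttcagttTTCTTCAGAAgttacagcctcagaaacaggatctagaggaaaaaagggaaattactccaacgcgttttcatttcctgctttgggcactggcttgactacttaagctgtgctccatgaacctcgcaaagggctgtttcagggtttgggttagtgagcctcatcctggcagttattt
Igf1 (chr10:87860861-87861160, plus strand): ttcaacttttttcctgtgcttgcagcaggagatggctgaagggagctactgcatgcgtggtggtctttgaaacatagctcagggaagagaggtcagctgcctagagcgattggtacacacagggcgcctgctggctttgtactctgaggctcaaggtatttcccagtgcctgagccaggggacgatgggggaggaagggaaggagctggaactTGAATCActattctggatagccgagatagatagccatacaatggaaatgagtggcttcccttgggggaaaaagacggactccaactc
Csf1 (chr3:107760420-107760719, minus strand): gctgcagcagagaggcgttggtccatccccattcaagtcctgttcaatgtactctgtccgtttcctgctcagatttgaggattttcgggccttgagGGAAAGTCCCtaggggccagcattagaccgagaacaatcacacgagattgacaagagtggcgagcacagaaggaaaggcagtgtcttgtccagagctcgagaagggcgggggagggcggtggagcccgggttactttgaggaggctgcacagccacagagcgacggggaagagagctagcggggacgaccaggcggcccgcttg
Ank (chr15:27466427-27466726, plus strand): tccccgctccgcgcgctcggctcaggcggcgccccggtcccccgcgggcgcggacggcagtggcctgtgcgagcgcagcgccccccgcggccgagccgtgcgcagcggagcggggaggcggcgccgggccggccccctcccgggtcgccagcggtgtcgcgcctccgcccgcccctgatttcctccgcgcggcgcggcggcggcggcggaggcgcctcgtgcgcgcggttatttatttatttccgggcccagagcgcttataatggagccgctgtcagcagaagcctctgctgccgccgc

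The Cst7 promoter held a GGAAGT at 62 to 57 bases before the start and a TGATTCA across the start itself. The latter is a match only to the loose AP-1 pattern TGANTCA, which leaves the middle base free. The other match to that pattern, TGAATCA, lay in the Igf1 promoter, whose start is an internal one, 2846 bases inside the RefSeq gene. Neither match has G or C at the free base. Clec7a held 1 STAT match with the 4-base spacer, TTCTTCAGAA, and Csf1 held 1 NF-kB match, read as GGAAAGTCCC on the strand shown. The Ank promoter held none of the 7 motifs in this window. Among 32851 RefSeq promoters of the same length, 23.8% held GGAAGT, 7.81% the AP-1 motif, 8.30% the STAT motif with the 3-base spacer, 6.95% that with the 4-base spacer, 3.44% the interferon motif, 0.411% the NF-kB motif and 13.6% the TATA box. No motif was found in both rising genes or in more than 1 falling gene. The promoters also differed in base composition: 78.0% of the Ank bases were G or C, more than in most promoters (percentile 98.2), against 42.7% for Clec7a (percentile 16.5).

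Expression was deposited as FPKM, fragments scaled by transcript length and library total, so levels can be set side by side between genes. The authors had filled the microglia table with genes they found changed on these same libraries, so its directions are not independent evidence. Read numbers are not given, and depth is unknown. The table total was 115884 to 117408 FPKM in co-cultured libraries and 59529 to 61068 FPKM in control libraries, which is not a library size. Changes were tested with limma on log2(FPKM + 1) over the 1529 genes with a mean of at least 1 FPKM, a scale that understates changes of low genes, and a gene was called at a Benjamini-Hochberg adjusted p under 0.05. Of these genes 100% were called, 53.4% higher (817 genes) and 46.6% lower (712 genes) in co-culture. With every library scaled to the same total over the table, 82.9% were called, 35.1% higher (537 genes) and 47.8% lower (731 genes), and the log2 fold changes of single genes moved by a median of -0.83. All 5 genes passed the filter and were called, 2 higher and 3 lower, and against that background the calls say nothing particular about them.

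Cst7 and Clec7a rose in co-culture, and Igf1, Csf1 and Ank fell. The rises were 18.5-fold and 6.14-fold, and co-cultured microglia kept 34.9% of the control level of Igf1, 44.5% of that of Csf1 and 17.2% of that of Ank. In each of the 5 genes the libraries of the 2 groups did not overlap, as in 100% of the genes tested. The directions were the same with equal totals and after quantile normalization. In bulk RNA, fewer cells of a type and less RNA per cell cannot be told apart.

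**Figure D1:**
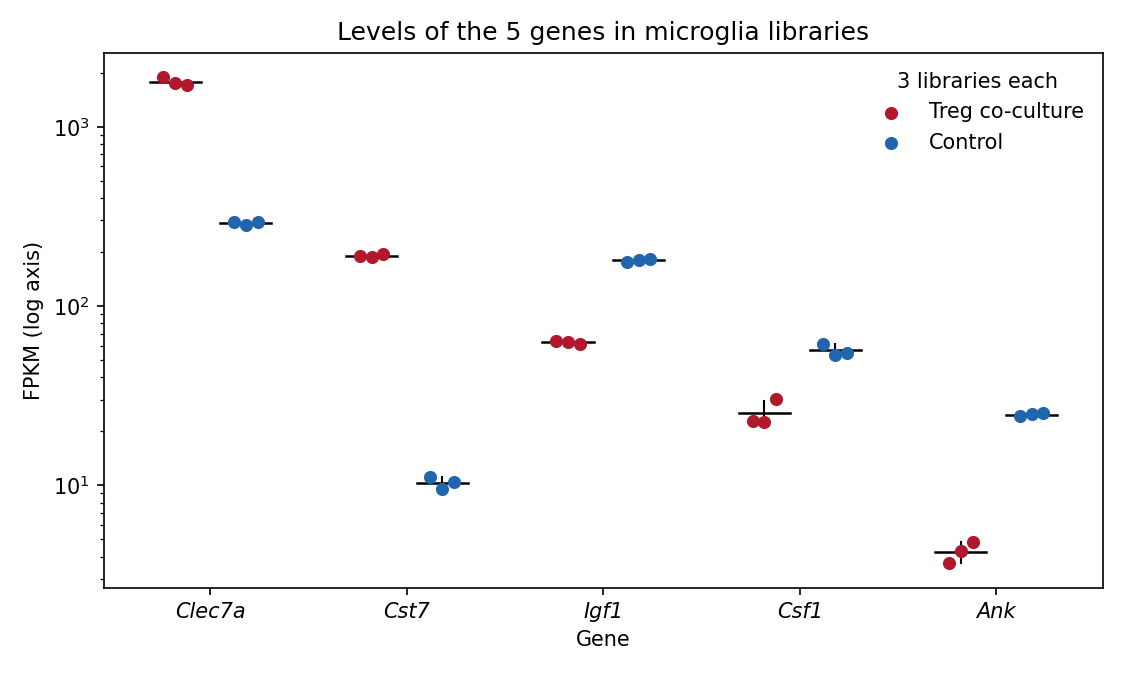
FPKM (log axis) of the 5 genes in the 3 co-cultured libraries (red, left) and the 3 control libraries (blue, right), with the mean (line) and SD (bar). Clec7a and Cst7 lie higher in co-culture, Igf1, Csf1 and Ank lie lower, and Cst7 lies directly below Clec7a in co-cultured cells and is the lowest of the 5 genes in control cells.

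Cst7 (NCBI gene 13011, chromosome 2, 150570415 to 150578944, GRCm38.p6) had the larger rise. It stood at 189, 189 and 195 FPKM in the co-cultured libraries, against 11.1, 9.49 and 10.5 FPKM in the control libraries. The co-cultured libraries lay close together, with a coefficient of variation of 1.84%, against 7.71% in the controls. On the log2 scale the difference was 4.08 (SE 0.06, limma adjusted p by Benjamini-Hochberg = 9.26e-09), which ranked 57th in size among the 817 genes called higher.

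Clec7a (gene 56644, chromosome 6, 129461591 to 129472785) had the highest level of the 5 genes in both groups. Its FPKM was 1887, 1758 and 1710.0 in co-cultured libraries and 294, 285 and 294 in control libraries. On the mean FPKM it was the gene with the 10th highest level of the 2186 in co-culture and the 36th in control cells. Its log2 fold change was 2.61 (SE 0.04, limma adjusted p = 9.26e-09), the 124th largest rise of 817.

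Igf1 (gene 16000, chromosome 10, 87858265 to 87937047), the growth factor, was high in control cells and fell with almost no spread. It had 64.2, 63.0 and 61.7 FPKM in the co-cultured libraries, against 177, 181 and 183 FPKM in the control libraries. The coefficient of variation was 1.91% in co-culture and 1.85% in control. The log2 fold change was -1.50 (SE 0.04, limma adjusted p = 3.07e-08), the 213th largest fall of 712.

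Csf1 (gene 12977, chromosome 3, 107741048 to 107760469) had the smallest change of the 5. Its levels were 22.9, 22.6 and 30.3 FPKM in co-cultured libraries and 61.7, 53.6 and 55.0 FPKM in control libraries. Library 3 of the co-culture stood above the other co-cultured libraries and below all controls. The log2 fold change was -1.15 (SE 0.12, limma adjusted p = 3.73e-05), the 439th largest fall of 712. In the authors' deposited table its log2 fold change was -1.02, close to the smallest absolute value that the table holds, 1.0006.

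Ank (gene 11732, chromosome 15, 27466677 to 27594909), the ATP and citrate exporter, fell the most of the 3. It was at 3.67, 4.30 and 4.81 FPKM in co-cultured libraries, against 24.3, 24.9 and 25.2 FPKM in control libraries. The relative spread was wider in co-culture, where the level was low, with a coefficient of variation of 13.4% against 1.74% in control. The log2 fold change was -2.30 (SE 0.09, limma adjusted p = 1.57e-07), the 42nd largest fall of 712.

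**Figure D2:**
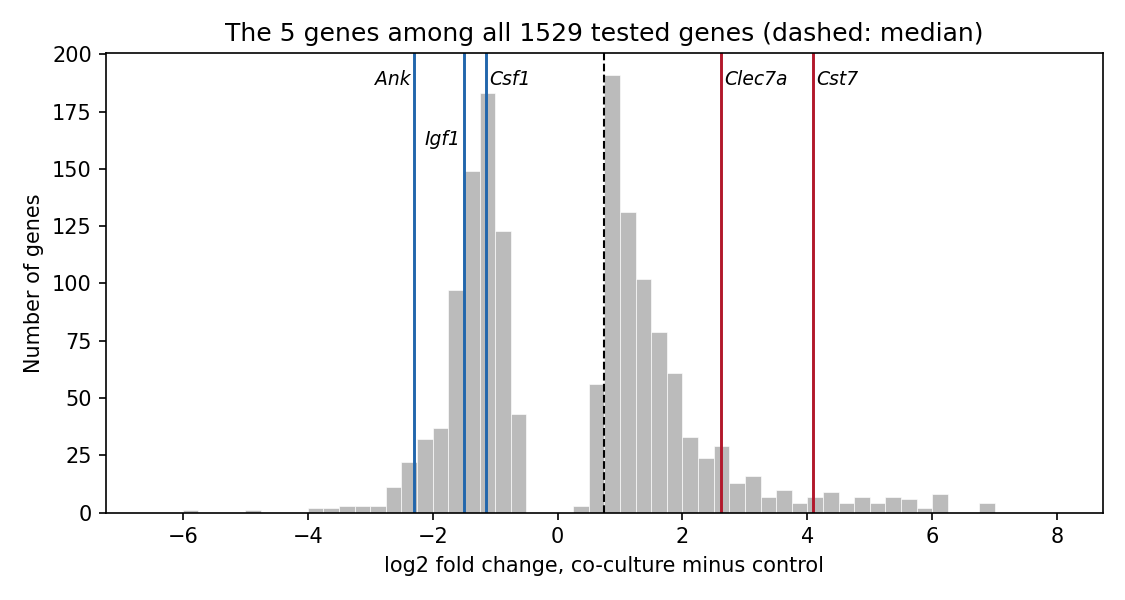
Number of genes by log2 fold change, co-culture minus control, for the 1529 tested genes of the microglia table, with the 5 genes as solid lines (red higher, blue lower) and the median of all tested genes, 0.74, as a dashed line. The empty centre shows the authors' selection of changed genes. Among the 5, Cst7 at 4.08 lies farthest to the right and Ank at -2.30 farthest to the left.

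The order of levels among the 5 genes changed. In co-cultured microglia it was Clec7a, Cst7, Igf1, Csf1 and Ank from high to low, against Clec7a, Igf1, Csf1, Ank and Cst7 in control microglia. No neighbours in either order overlapped between libraries. In co-cultured cells the narrowest step was Igf1 over Csf1, 2.49-fold on the means. In control cells it was Clec7a over Igf1, where the means differed 1.61-fold and the lowest Clec7a library had 285 FPKM and the highest Igf1 library 183 FPKM.

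Ratios of 2 genes within a library do not depend on a factor that multiplies the whole library, and all 10 pairs were compared. Quantile normalization is not such a factor, and the ratios were not computed after it. The exact permutation test over libraries, two-sided, gave p = 0.1 for each of the 10 pairs (adjusted p = 0.1), the smallest value that 3 against 3 libraries can give, so no pair could pass the threshold. The ratio of Clec7a to Igf1 was 29.4, 27.9 and 27.7 in co-cultured libraries and 1.66, 1.57 and 1.60 in control libraries. Cst7 was 51.6, 43.9 and 40.5 times as high as Ank in co-cultured libraries, while in control libraries it was below it, with ratios of 0.455, 0.382 and 0.416. Between the 2 rising genes, Cst7 gained on Clec7a, with ratios of 0.1003, 0.107 and 0.114 in co-culture and 0.0377, 0.0333 and 0.0356 in control, a difference of 1.59 (SE 0.07) on the log2 scale.

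With the FPKM as deposited, the 3 falling genes differed in the size of their fall, though no pair could pass the threshold. After quantile normalization their log2 fold changes were -2.41 for Igf1, -2.02 for Csf1 and -2.73 for Ank. The ratios given next are on FPKM as deposited. The ratio of Igf1 to Ank was 17.5, 14.6 and 12.8 in co-culture, against 7.26, 7.27 and 7.28 in control. That of Csf1 to Ank was 6.23, 5.26 and 6.30 in co-culture and 2.54, 2.16 and 2.18 in control. Both ratios were higher in every co-cultured library than in any control library. Igf1 and Csf1 lay nearer to each other, with ratios of Igf1 to Csf1 of 2.80, 2.78 and 2.04 in co-culture and 2.86, 3.37 and 3.33 in control, a log2 difference of -0.34 (SE 0.17). The groups did not overlap there either, but the nearest libraries were at 2.80 in co-culture and 2.86 in control, and the difference was -0.19 without library 3 of the co-culture.

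**Figure D3:**
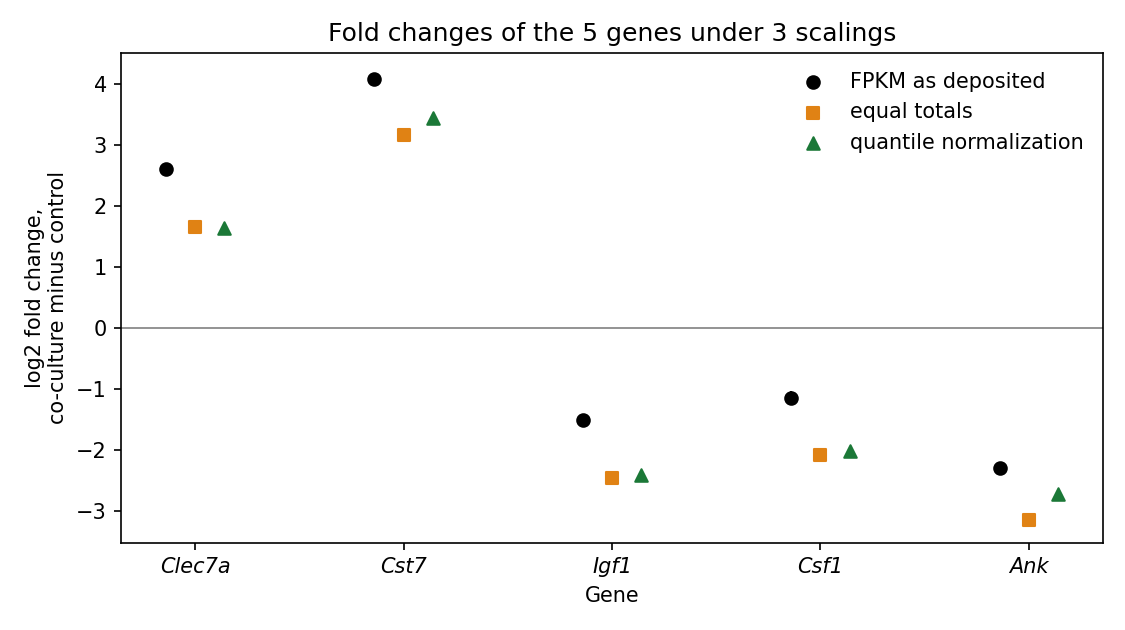
The log2 fold change (co-culture minus control) of the 5 genes with FPKM as deposited (circles, bars are SE and lie within most symbols), with every library scaled to equal totals over the table (squares) and after quantile normalization (triangles). Both scalings lower every value, to 3.17 and 3.45 for Cst7 and to -3.15 and -2.73 for Ank, and no gene crosses 0.

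With equal totals the log2 fold changes were 3.17 for Cst7, 1.66 for Clec7a, -2.45 for Igf1, -2.08 for Csf1 and -3.15 for Ank. Relative to the median of all tested genes (0.74 with the values as deposited), Cst7 lay 3.35 and Clec7a 1.88 above it, while Igf1 lay at -2.24, Csf1 at -1.88 and Ank at -3.03. Which scaling is the right one cannot be told from a table of selected genes.

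Other genes of the disease-associated state followed both directions. Of a list of 41 such genes, 15 had a row and were tested, 10 of them higher and 5 lower, with a median log2 fold change of 1.3, against 0.74 over all genes tested. Apart from the 5 genes, 8 were higher and 2 lower, while of all genes tested 53.4% were higher and 46.6% lower. Ccl6, a chemokine, was at 1396, 1296 and 1375 FPKM in co-cultured libraries and 129, 109 and 119 FPKM in control libraries, a log2 fold change of 3.50 (SE 0.06). Ch25h, the enzyme that makes 25-hydroxycholesterol, rose 9.94-fold to 20.7 ± 1.18 FPKM, and Hif1a, the hypoxia-response transcription factor, rose 3.72-fold to 135 ± 6.67 FPKM (SD, n = 3 each).

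Lpl and Serpine2 fell together with Igf1, Csf1 and Ank. Lpl, lipoprotein lipase, was at 249.98, 263 and 219 FPKM in co-cultured libraries, against 627, 668 and 596 FPKM in control libraries. Serpine2, a secreted protease inhibitor, was at 19.1, 19.4 and 21.0 FPKM in co-cultured libraries, against 66.0, 68.1 and 63.7 FPKM in control libraries. Scaling to equal totals gave 9 list genes higher and 6 lower, since Npc2 turned to -0.13, and after quantile normalization 7 were called higher and 6 lower. The list median was 0.34 with equal totals, against -0.11 over all genes tested, and 0.04 after quantile normalization, against 0.02, so the gap to the table depended on the scaling. The other 26 genes of the list, Trem2, Apoe, Axl, Itgax and Spp1 among them, are not analysed here.

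**Figure D4:**
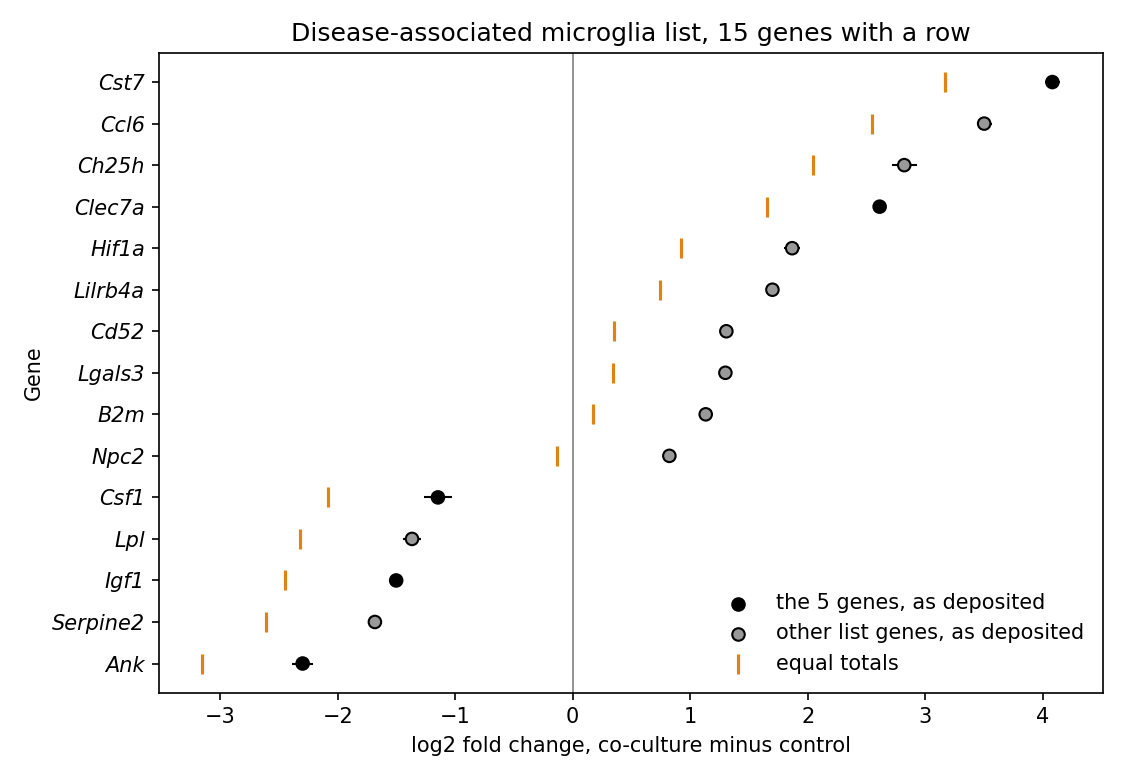
The log2 fold change (co-culture minus control) with its SE of the 15 genes of the disease-associated list that had a row, with the 5 genes in black, other list genes in grey, and the value with equal totals as an orange bar. With the values as deposited 10 genes lie above 0 and 5 below, and Npc2 changes side with equal totals.

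The homeostatic genes, which the disease-associated state is known to lose, fell too. All 7 tested genes of a list of 20 were lower under all 3 scalings. Of all genes tested, 46.6% were called lower with the values as deposited, 47.8% with equal totals and 716 of 1529 after quantile normalization. Cx3cr1, the fractalkine receptor, was at 1.26, 1.36 and 1.74 FPKM in co-culture, against 137, 144 and 126 FPKM in control. Olfml3, a secreted glycoprotein, was 8.64-fold lower and the lysophosphatidylserine receptor gene Gpr34 7.91-fold lower in co-culture. Sparc, also 1 of the 7, was at 36.42, 36.71 and 63.05 FPKM in the co-cultured libraries. It was highest in library 3 there, as were the fibroblast and mural cell markers given further on. The part of fibroblasts and mural cells in the fall of Sparc was not tested.

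Around Cst7, the list of cystatins and cathepsins (22 genes) had 4 genes tested, 3 higher and 1 lower. Without Cst7 itself, 2 were higher and 1 lower, while of all genes tested 53.4% were higher and 46.6% lower. Ctsc encodes cathepsin C, a protease that cystatin F is known to inhibit and that activates granule serine proteases. It stood at 1203, 1198 and 1165 FPKM in co-cultured libraries and at 145, 126 and 116 FPKM in control libraries, a log2 fold change of 3.20 (SE 0.08). Cathepsin S, encoded by Ctss, rose 2.20-fold to 4038 ± 133 FPKM but was not called after quantile normalization, at a log2 fold change of 0.04 (limma adjusted p = 0.238). Ctsf, a lysosomal protease of the same family, was 2.35-fold lower.

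Around Clec7a, 7 of 24 genes for myeloid lectin receptors and their signalling were tested, 6 higher and 1 lower with the values as deposited. Without Clec7a itself, 5 were higher and 1 lower, while of all genes tested 53.4% were higher and 46.6% lower. Scaled to equal totals, 4 of the 7, Clec7a included, were called higher and 1 lower, against 35.1% and 47.8% of all genes tested. After quantile normalization 5 were called higher and 2 lower. Clec4d, another activating lectin receptor, moved against Clec7a, with 167, 142 and 150 FPKM in co-cultured libraries and 511, 515 and 533 FPKM in control libraries. Src, a tyrosine kinase, rose 3.15-fold, Clec5a, a lectin receptor that pairs with DAP12, 3.18-fold, and Ptpn6, the phosphatase SHP-1 that restrains such signalling, 2.12-fold. Clec4a1 lay at -0.11 and Lyn at -0.10 with equal totals, where neither was called, and after quantile normalization Lyn was called lower.

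Around Igf1, all 6 tested genes of the insulin-like growth factor axis (25 genes) were lower in co-culture under all 3 scalings. Their median log2 fold change was -1.43 with the values as deposited, against 0.74 over all genes tested and -1.26 over those called lower. Igf1 itself is 1 of these 6, and without it 5 were lower and 0 higher. Of all genes tested, 46.6% were called lower with the values as deposited, 47.8% with equal totals and 716 of 1529 after quantile normalization. The binding proteins Igfbp5, Igfbp2 and Igfbp6, which hold growth factors of this family outside cells, were lower. Igfbp5 was at 3.14, 4.30 and 9.24 FPKM in co-cultured libraries and 18.2, 16.8 and 18.2 FPKM in control libraries. Igfbp2, 2.80-fold lower, was at 18.1, 20.4 and 29.1 FPKM in co-culture, against 78.1, 60.4 and 50.7 FPKM in control. Igfbp6 was 3.31-fold lower. Among the co-cultured libraries all 3 were highest in library 3, as were the fibroblast and mural cell markers given further on, such as Col1a1 (28.5, 28.7 and 61.2 FPKM). Igf1 itself was lowest in that library. The part of fibroblasts and mural cells in the falls of the binding proteins was not tested. Pappa and Stc1 of the list were below the filter.

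Around Csf1, 6 of 17 genes of colony-stimulating factors and their pathway were tested, 4 higher and 2 lower. Without Csf1 itself, 4 were higher and 1 lower, while of all genes tested 53.4% were higher and 46.6% lower. With equal totals 3 of the 6 were called higher, 2 lower and 1 was not called, against 35.1% higher and 47.8% lower of all genes tested. After quantile normalization 3 were called higher and 3 lower. Csf2rb, the shared signalling chain of the receptors for GM-CSF, IL-3 and IL-5, stood at 299, 300 and 279 FPKM in co-cultured libraries and 70.3, 62.5 and 61.7 FPKM in control libraries. Its close paralog Csf2rb2 rose 3.26-fold, and reads may have been split between such copies, so both values are uncertain. Irf8, a transcription factor of myeloid cells, rose 2.52-fold, and Cebpa, another one, was 2.57-fold lower. Cebpb turned to -0.12 with equal totals and was then not called (limma adjusted p = 0.153). Csf1r and Il34, the receptor of Csf1 and its other ligand, are not analysed here in microglia.

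Around Ank, 5 of 14 genes of pyrophosphate and phosphate handling were tested, 3 higher and 2 lower. Without Ank itself, 3 were higher and 1 lower, while of all genes tested 53.4% were higher and 46.6% lower. With equal totals 1 of the 5 was called higher and 2 lower, against 35.1% and 47.8% of all genes tested. After quantile normalization 3 were called higher and 2 lower. Entpd1, the ectoenzyme CD39 that splits extracellular ATP and ADP, was at 155, 158 and 146 FPKM in co-cultured libraries and 51.8, 48.6 and 44.3 FPKM in control libraries. Mgp, an inhibitor of calcification, was 2.31-fold lower, at 14.85, 12.98 and 29.74 FPKM in co-culture and 53.2, 42.2 and 37.7 FPKM in control. Among the co-cultured libraries it was highest in library 3, as were the fibroblast and mural cell markers given further on. The part of fibroblasts and mural cells in its fall was not tested. Ppa1, a cytosolic pyrophosphatase, and Nt5e, the ectoenzyme CD73 that turns AMP into adenosine, rose 2.00-fold and 1.99-fold, and neither was called with equal totals (limma adjusted p = 0.633 and 0.946).

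By the Euclidean distance between centred log2(FPKM + 1) profiles over the 6 libraries, each of the 5 genes had its own nearest genes among the 1529. For Clec7a they were Tfec, Dram1 and Rnf19b, at distances of 0.0754, 0.0794 and 0.0992. Tfec, a transcription factor of the MiT family, stood at 61.2 ± 4.03 FPKM in co-culture and 9.47 ± 0.272 FPKM in control, and Dram1 is a lysosomal membrane protein linked to autophagy. For Igf1 they were Mfge8, Creg1 and Tln2, at 0.0597, 0.0607 and 0.0654. Mfge8, a bridging protein for the uptake of dying cells, stood at 137 ± 0.643 FPKM in co-culture and 398 ± 7.09 FPKM in control.

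For Ank the nearest were Ephx1, Slc26a11 and Mturn, at 0.0976, 0.176 and 0.181, of which Ephx1, an epoxide hydrolase, had 17.8 ± 2.28 FPKM in co-culture and 91.6 ± 5.39 FPKM in control. For Cst7 they were Gm4841, Clec9a and Ltb4r1, at 0.160, 0.228 and 0.254. These lay under 0.50 FPKM in every control library, so their folds on FPKM were 78.4 to 89.3, far above the 18.5 of Cst7, and they were near to it only on the scale with the pseudocount. The same held for low genes near the others: Tln2 was 5.79-fold lower against 2.86-fold for Igf1, and Mturn 13.9-fold lower against 5.82-fold for Ank.

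The nearest genes of Csf1 were Ltbp1, Lamb2 and Ccnd2, at 0.0661, 0.0819 and 0.0844. Ltbp1 binds latent TGF-beta in the extracellular matrix, Lamb2 is a laminin chain and Ccnd2 is cyclin D2. Like Csf1, all 3 were highest in library 3 among the co-cultured libraries, which their choice by profile over these same libraries largely fixes. Ccnd2 was at 6.63, 6.78 and 9.75 FPKM in co-culture and at 19.1, 17.0 and 17.6 FPKM in control. Library 3 over the mean of libraries 1 and 2 was 2.02 for Ltbp1, 1.46 for Lamb2, 1.45 for Ccnd2 and 1.33 for Csf1, against a median of 1.01 over the 1529 genes (5th to 95th percentile 0.853 to 1.81). The value of Csf1 was inside that range, and 82.7% of the genes lay at or below it.

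Markers of other cells moved with the groups and with that library. Of 9 fibroblast and mural cell markers 5 had a row, 4 lower and 1 (Dcn, not called with equal totals) higher in co-culture, and their FPKM summed to 96.1 to 193 in co-cultured libraries and to 557 to 634 in control libraries. None of the 5 was at 0 in any library. Col1a1, a chain of type I collagen, was at 28.5, 28.7 and 61.2 FPKM in co-cultured libraries and at 174, 159 and 171 FPKM in control libraries. Acta2, smooth muscle actin, was 13.2-fold lower in co-culture. Library 3 over the mean of libraries 1 and 2 was 2.14 for Col1a1, 1.33 for Csf1, 1.21 for Ank, 0.972 for Igf1, 1.03 for Cst7 and 0.938 for Clec7a. Without library 3 of the co-culture the log2 fold change was -1.28 for Csf1 and -2.37 for Ank (limma adjusted p = 2.12e-06 and 1.91e-07). The part of fibroblasts and mural cells in the falls of Csf1, Igf1 and Ank was not tested.

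**Figure D5:**
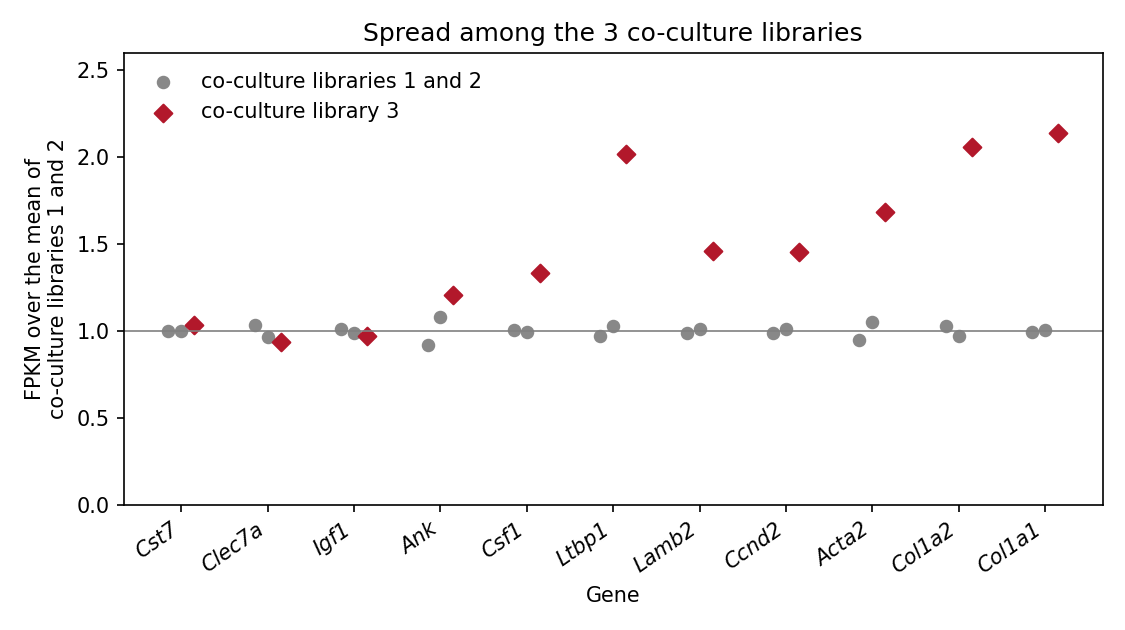
FPKM of each co-cultured library over the mean of co-cultured libraries 1 and 2, for the 5 genes, the 3 nearest genes of Csf1 and 3 fibroblast and mural cell markers (grey circles, libraries 1 and 2, red diamonds, library 3). Library 3 lies at 1.33 for Csf1 and 2.14 for Col1a1, and near 1 for Cst7, Clec7a and Igf1.

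Markers of microglia and macrophages moved both ways. Of 18 markers of microglia and macrophages 8 had a row, 5 higher and 3 lower with the values as deposited and 3 each way with equal totals, and their FPKM summed to 11554 to 11739 in co-cultured libraries and to 5918 to 6087 in control libraries. Most of these sums came from C1qa, C1qb and C1qc, with means of 2998, 3652 and 4421 FPKM in co-culture and 1367, 1650 and 2191 FPKM in control. The table total was higher in co-culture too, at 115884 to 117408 FPKM against 59529 to 61068 FPKM. The 3 lower markers were Cx3cr1 (93.3-fold), Cd14 (3.02-fold) and Tmem119. Tmem119 was present in all libraries, at 3.77, 4.27 and 3.72 FPKM in co-culture and 9.86, 9.12 and 10.6 FPKM in control. Of 26 T cell markers 6 had a row, the 2 above the filter (Cd28 and Thy1) were lower in co-culture, and the sum of the 6 was 10.9 to 20.8 FPKM in co-cultured libraries and 35.0 to 56.0 FPKM in control libraries, most of it from Thy1 and Cd28. The other 4 were under the filter and were not tested. Of these, 3 had higher means in co-culture: Ikzf2 2.72-fold, Lck 2.26-fold and Cd8b1 5.67-fold. Ikzf2, a transcription factor also found in Treg cells, was at 1.18, 1.24 and 1.14 FPKM in co-culture and 0.48, 0.41 and 0.42 FPKM in control. Lck, a T cell kinase, was at 0.54, 0.47 and 0.66 FPKM in co-culture and 0.17, 0.19 and 0.38 FPKM in control. Cd5 had a lower mean in co-culture and was listed at 0 in library 3 there, and Cd8b1 was listed at 0 in control library 3. Of 8 astrocyte markers 1 had a row (Aqp4, lower), of 11 oligodendrocyte markers 4 had one (2 higher and 2 lower with the values as deposited), and neutrophil and B cell markers are not analysed here in microglia. The part of these cells in the changes of the 5 genes was not tested.

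In the Treg table, some genes related to the 5 had rows. Treg cells of the injured cord were compared with those of the spleen, and of 1072 genes tested 99.6% were called, 61% higher and 38.6% lower, and 63.4% with equal totals. The groups did not overlap in 97.6% of the genes, 59% higher and 38.5% lower. Csf1r, the receptor of Csf1, was at 3.64, 2.06 and 2.86 FPKM in spinal cord libraries and 0.35, 1.25 and 0.77 FPKM in spleen libraries. Igf1r, the receptor of Igf1, was at 4.74, 7.04 and 2.39 FPKM in spinal cord libraries and 1.49, 1.16 and 1.37 FPKM in spleen libraries. The libraries of the groups did not overlap in either gene, and both were called (limma adjusted p = 0.00430 and 0.00523), but neither with equal totals (limma adjusted p = 0.149 and 0.182). Macrophage markers, Csf1r among them, moved with the tissue as well: 6 of 18 had a row, and 5 of 5 tested were higher with the values as deposited, 1 of them (Cd14) also with equal totals, with a sum of 81.8 to 99.1 FPKM in spinal cord libraries and 25.5 to 35.3 FPKM in spleen libraries. Neutrophil markers, of which 2 of 8 were tested and higher, summed to 28.4 to 83.0 FPKM in spinal cord libraries and to 4.22 to 9.77 FPKM in spleen libraries. The part of these cells in the levels of Csf1r and Igf1r was not tested.

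Of the disease-associated list 7 genes were tested in the Treg table, 6 higher and 1 lower in the spinal cord. Hif1a rose 4.40-fold to 285 ± 98.0 FPKM, and Fth1, the ferritin heavy chain that stores iron, 2.74-fold to 3932 ± 534 FPKM. Cadm1, an adhesion molecule, was 5.93-fold lower. Scaled to equal totals, 2 of these were higher, 1 was lower and 4 were not called, with B2m at -0.06.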

How the data were processed

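Per the labels' protocols, oligo(dT) beads selected the messenger RNA of 12 mouse libraries, and groups and replicate numbers come from the sample titles. FPKM values with 2 decimals were deposited by the authors, per the file headers, in 1 table per comparison. The submitters' processing notes list, with no role, Bowtie2, RSEM 1.3.1, DESeq2 1.4.5 and the build GRCm38.p6. Strand and the sharing of reads between paralogs are not given in the sources used here. Each table also held a log2 fold change and a Q value deposited by the authors, and only genes with an absolute log2 of at least 1.0006 and a Q value of at most 0.0498. In the microglia table the header of that log2 calls its numerator by a name absent from the labels, and in all 2186 genes the sign fitted co-culture over control. The deposited log2 was a median of 0.21 above that from mean FPKM. Selection makes adjusted p-values and library totals describe the selected genes alone. Low FPKM gave no read numbers, so no counting error is given.

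R 4.3.3 and limma 3.58.1 (eBayes, trend on) fitted each table alone on log2(FPKM + 1), for genes with a mean of at least 1 FPKM, with Benjamini-Hochberg adjustment over all genes kept. The fit was tested on simulated data. Errors given are the SD for FPKM and the SE for log2 fold changes. Other steps used scipy 1.17.1, numpy 2.4.6, pandas 2.3.3 and matplotlib 3.10.9 in Python 3.11.15. Coordinates and promoters came from RefSeq tables of GRCm38.p6, matched by NCBI gene ID for 5 of 5 genes, and motifs were chosen with the sequences in view.

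The 5 genes, the 14 lists and the tests were chosen with earlier results of these data known. Named by rule were the 5 genes, up to 3 called rises and 3 called falls per list, and the 3 nearest genes of each. Npc2, B2m, Clec4a1, Lyn, Cebpb, Lck, Ikzf2, Cd8b1, Cd5, Pappa and Stc1 were named after their values were seen. Alternatives covered pseudocounts, filters, scalings, the variance model, a replicate block and leaving out each library.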

Additional observations from a re-analysis of the deposited data

How the results depend on the processing

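Every log2 fold change of the 5 genes in microglia kept its direction and its call under the 14 other settings tried (limma, largest adjusted p = 4.05e-04, for Csf1), and its direction under a shift of 0.21 to the scale of the authors' log2, chosen after seeing the data. The values ranged from 3.17 to 4.30 for Cst7, 1.65 to 2.82 for Clec7a, -2.45 to -1.29 for Igf1, -2.08 to -0.94 for Csf1 and -3.15 to -2.09 for Ank. Leaving out 1 library moved Csf1 between -1.28 and -1.08. The ratios between the genes kept their direction with a pseudocount of 1 and without any 1 library, and that of Igf1 to Csf1 ranged from -0.42 to -0.19 on the log2 scale.

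Of all microglia genes, 1001 were called with a filter of at least 5 FPKM, by construction since fewer genes were tested, against 1529. In the Treg cells 680 were called with equal totals, 266 higher and 414 lower, against 1068 with the values as deposited. No alternatives were run for the 5 genes in Treg cells, where they had no row. Deviations of same-numbered microglia libraries correlated at -0.04, 0.15 and 0.17, and those of differently numbered ones at -0.29 to 0.27. For Treg libraries the values were -0.00290, -0.0413 and -0.0532 with the same number and -0.0138 to 0.0557 with different numbers. The same-numbered values did not stand above the others, so the numbers were not taken to pair libraries. With the replicate block 1529 and 1064 genes were called, and the block changed no call of the 5 genes.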
